A study of Mus musculus with 21 samples.

Results

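The comparison set antral follicles of mouse ovaries (ANTRAL) against primary follicles (PRIMARY), the widest span among the isolated follicles of the series. The groups were taken from the sample titles. They hold 6 of the 21 arrays, 3 in each group. All samples came from female CD1 mice, an outbred strain. PRIMARY follicles were 70 to 90 µm in diameter and were taken at postnatal day 10, with no treatment named. ANTRAL follicles were 400 to 600 µm and were dissected mechanically at day 20 from mice given pregnant mare serum gonadotropin (PMSG), which acts on the ovary like follicle-stimulating hormone. Growth of the follicle, 10 days of age and the hormone therefore cannot be told apart here. The 3 samples of a stage were drawn from pooled follicles, and nothing says that they came from separate mice, so the p-values rest on a spread that may be technical alone. Between the groups lie 3 further stages of isolated follicles, used below only for the time course. These are two-layered secondary follicles (TLS, 100 to 130 µm, day 12), multi-layered secondary follicles (MLS, 150 to 180 µm, day 16) and pre-antral follicles (PREANTRAL, 200 to 300 µm at day 18 for 2 of 3 samples). The labels of PREANTRAL repeat 2 give day 20 and, in its source name, the size, isolation and PMSG of the antral samples, against its title.

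A primary follicle is an oocyte within a single layer of granulosa cells. As it grows, the granulosa cells multiply, a theca layer with its own vessels forms outside the basement membrane, and under gonadotropins a fluid-filled antrum opens and steroid synthesis rises. Oocyte genes and steroid enzymes are the usual markers of this course, and the account below turns mainly on other genes.

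Each array reported a signal and a detection p-value for 25697 probes. Probes counted as detected (detection p under 0.05) numbered 12888 to 13316 on the PRIMARY arrays and 12363 to 12593 on the ANTRAL arrays. Across the genes tested below, each array correlated with the others of its own group at a mean r of 0.986 to 0.991 (normalized levels). The label of PRIMARY repeat 3 conflicts with its title, since its stage tag is that of the day-3 ovaries and its tissue is given as ovary. The columns of a pair of antral arrays share 1 name, and these arrays are called ANTRAL a and ANTRAL b. The level of a gene is the log2 of its background-corrected, quantile-normalized intensity, read from the probe with the highest mean. Differences were taken within a probe, and levels of different probes were ranked only to choose which genes detected in 1 group alone are named. Of 10067 genes tested, 4675 (46.4%) passed an adjusted p of 0.05 in limma's moderated test, of which 2348 (23.3%) were higher and 2327 (23.1%) lower in ANTRAL. Changes of at least 2-fold were called for 1152 genes upward (11.4%) and 1271 downward (12.6%), and for 401 and 498 in the authors' own log2 values, where differences are smaller. The levels of the groups did not overlap for 5987 genes (59.5%), so that separation of the 6 arrays is common here. The median difference over all genes was 0.02 on the log2 scale.

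**Figure D1:**
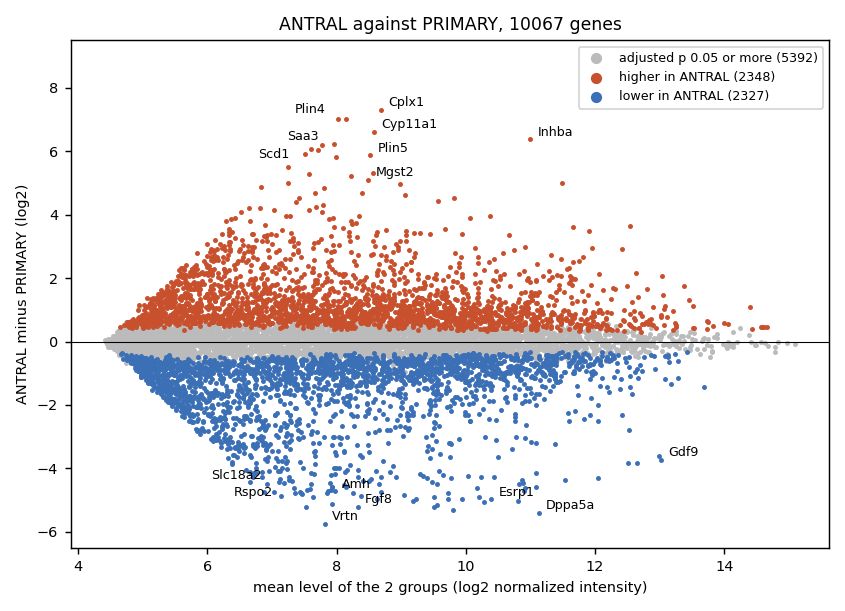
Difference between ANTRAL and PRIMARY (log2, y axis) against the mean level of the 2 groups (log2 normalized intensity, x axis) for 10067 genes, each point a gene, coloured by the call at an adjusted p of 0.05. The 2348 called rises and 2327 called falls lie on both sides of 0, and the labelled genes lie far from 0, from Cplx1 at 7.31 to Vrtn at -5.76.

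Genes of lipid storage and lipid modification were among the largest rises outside the oocyte and steroid lists. Plin4, a perilipin that coats lipid droplets, read 4.53, 4.68 and 4.65 on the PRIMARY arrays, where it was not well above background, and 11.74, 11.66 and 11.57 on the ANTRAL arrays. It was at least 90.6-fold higher in ANTRAL (limma, adjusted p = 1.7e-18). A bound of this kind sets the antral mean against the lowest signal that counts as detected on the PRIMARY arrays. Plin5, the perilipin that ties droplets to mitochondria and its neighbour on chromosome 17, read 5.50, 5.78 and 5.46 in PRIMARY and 11.44, 11.38 and 11.57 in ANTRAL, a difference of 5.88 ± 0.16 (SE, log2; adjusted p = 1.5e-16). Both probes were low on every PRIMARY array and high on every ANTRAL array. Plin2, the perilipin found in most tissues, read 7.13, 7.26 and 6.99 against 7.43, 7.21 and 7.22 and did not pass (0.16, adjusted p = 0.43).

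Scd1, the desaturase that makes monounsaturated fatty acids, read 4.74, 4.49 and 4.45 in PRIMARY and 10.35, 10.56 and 10.48 in ANTRAL. It was not detected on any PRIMARY array and was at least 39.7-fold higher in ANTRAL (adjusted p = 3.3e-14). Cyp4f18, a cytochrome P450 that hydroxylates leukotriene B4 and fatty acids, read 4.66, 4.60 and 4.79 against 10.61, 10.50 and 11.08, at least 47.7-fold higher (adjusted p = 2.2e-14). Its PRIMARY arrays were likewise all below detection.

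In all, 225 genes (2.24%) were detected on all 3 ANTRAL arrays and on none of PRIMARY. The 8 with the highest antral level were, beside Plin4, Cyp4f18 and Scd1, Ssu2, Saa3, D630023F18Rik, Ccn5 and Comp. Ssu2 read 4.56, 4.44 and 4.51 in PRIMARY and 11.49, 11.32 and 11.79 in ANTRAL, at least 83.2-fold higher (adjusted p = 2.8e-17). Saa3, an acute-phase serum amyloid A protein, read 4.54, 5.09 and 4.90 against 11.01, 11.27 and 10.98, at least 61.1-fold higher (adjusted p = 7.5e-16). Both were flat at background in PRIMARY and uniformly high in ANTRAL. Ccn5, a secreted matricellular protein, and Comp, the cartilage oligomeric matrix protein, were at least 44.8-fold and 33.3-fold higher. D630023F18Rik, which has no assigned function, was at least 52.7-fold higher.

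The largest fitted rise of the whole array belonged to Cplx1, which was picked out after its values were seen because it was detected on 1 of 3 PRIMARY arrays and so fell outside the selection rule. Cplx1 encodes complexin-1, a clamp of SNARE-driven exocytosis in neurons. It read 5.43, 4.76 and 4.92 in PRIMARY and 12.53, 11.87 and 12.64 in ANTRAL, a difference of 7.31 ± 0.26 (SE, log2; adjusted p = 7.8e-15). Every ANTRAL array lay far above every PRIMARY array.

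Among genes outside the oocyte, germ cell and steroid lists that were detected on at least 2 arrays of each group, Inhba led the 15 largest rises. It encodes the βA subunit shared by activin A and inhibin A. Its levels were 8.31, 7.42 and 7.69 in PRIMARY and 13.91, 14.58 and 14.08 in ANTRAL, a difference of 6.38 ± 0.51 (SE, log2; adjusted p = 1.5e-09). The groups were clearly apart, with PRIMARY repeat 1 the highest of its group. S100a6, a calcium-binding protein, read 6.36, 6.08 and 5.30 against 11.20, 11.07 and 11.38 (5.30, adjusted p = 1.7e-12). Lgals3, the carbohydrate-binding galectin-3, read 6.13, 5.64 and 5.05 against 11.10, 10.40 and 10.99 (5.23, adjusted p = 5.0e-11). For both, PRIMARY repeat 3 was the lowest array, and no PRIMARY array approached an ANTRAL one. Tnfrsf12a, the receptor of the cytokine TWEAK, was tight in both groups, at 5.95, 6.09 and 6.10 against 10.77, 10.64 and 10.78 (4.68, adjusted p = 1.5e-09).

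Mgarp, a mitochondrial protein known from steroid-producing tissues, read 9.08, 8.83 and 9.05 in PRIMARY and 14.02, 13.97 and 13.96 in ANTRAL (4.99, adjusted p = 1.7e-12). Mrap, which carries the corticotropin receptor to the surface of adrenal cells, read 7.80, 7.45 and 7.39 against 12.10, 11.88 and 12.26 (4.53, adjusted p = 9.3e-13). Both were detected on all 6 arrays, so that PRIMARY follicles already held a measurable level. Adh1, an alcohol dehydrogenase that can oxidise retinol, rose by 4.97 (adjusted p = 5.8e-12) and Plch2, a phospholipase C, by 4.69 (adjusted p = 1.7e-12). Slc12a8, a solute carrier of the cation-chloride cotransporter family, rose by 4.42 from 7.44, 7.14 and 7.48 to 11.72, 11.66 and 11.95 (adjusted p = 1.3e-11). The other members of the 15, Mgst2, Msmo1, Flt1, Scarb1 and Pfkp, are described with their groups below.

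**Figure D2:**
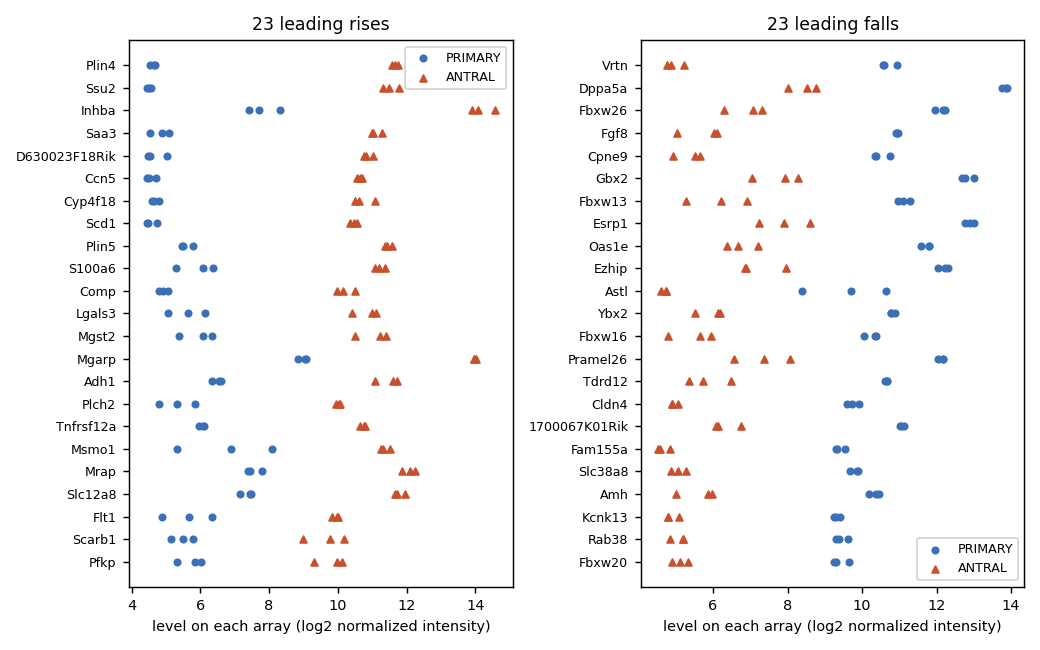
Levels on each array (log2 normalized intensity, x axis) of the leading rises and falls, 1 gene per line, with PRIMARY and ANTRAL arrays as points of different colour. For every gene drawn, the 3 ANTRAL arrays lie to one side of the 3 PRIMARY arrays, with Plin4 moving from near 4.6 to near 11.7 and Vrtn from near 10.7 to near 4.9.

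The leading falls included developmental regulators, germ-line RNA proteins and a gene cluster. Vrtn, a gene named for its part in setting the number of vertebrae in pigs, led the 427 genes (4.24%) detected on all PRIMARY and no ANTRAL array. It read 10.57, 10.59 and 10.95 in PRIMARY and 4.86, 5.21 and 4.76 in ANTRAL, at least 41.9-fold lower (adjusted p = 5.5e-15). Dppa5a, an RNA-binding protein of pluripotent cells and the germ line, was detected throughout and fell from 13.75, 13.86 and 13.89 to 8.75, 8.52 and 8.01 (-5.41 ± 0.23, SE, log2; adjusted p = 1.2e-13). The SD was 0.07 over the PRIMARY arrays and 0.38 over the ANTRAL arrays, with ANTRAL b the lowest. ANTRAL b was the lowest antral array for 16 of the 23 leading falls named here.

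Fgf8, an oocyte-derived growth factor that acts on the surrounding cumulus cells, read 10.97, 10.93 and 10.90 in PRIMARY and 6.12, 6.03 and 5.02 in ANTRAL (-5.21, adjusted p = 5.1e-12), and 2 of 3 ANTRAL arrays detected it. Gbx2, a homeobox factor, read 13.01, 12.75 and 12.69 against 7.94, 8.28 and 7.05 (-5.06, adjusted p = 9.2e-13). Esrp1, an epithelial splicing regulator, read 12.76, 12.89 and 13.00 against 7.91, 8.60 and 7.22 (-4.98, adjusted p = 4.1e-12). All 3 were uniform in PRIMARY and more scattered in ANTRAL.

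Of the F-box and WD40 genes that lie on chromosome 9, Fbxw26 fell by 5.22, Fbxw13 by 4.98 and Fbxw16 by 4.79 on the log2 scale, and Fbxw20 was detected on no ANTRAL array (at least 17.03-fold lower). These genes are close relatives, and a probe may bind more than 1 of them. Another gene of this name, Fbxw15, is a member of the oocyte growth list and fell by 4.45. The RNA-handling proteins Ybx2, which stores maternal messages, and Tdrd12, a factor of the piRNA pathway, fell by 4.88 and 4.79. Ezhip, an inhibitor of the Polycomb methyltransferase complex, fell by 4.95, Cpne9, a copine, by 5.13, Oas1e, of the oligoadenylate synthetase family, by 4.97, Pramel26 by 4.79 and 1700067K01Rik by 4.74. The remaining genes with their highest PRIMARY level and no antral detection were Slc38a8, an amino acid transporter (at least 22.5-fold lower), the tight junction protein Cldn4 (21.6-fold), the egg protease Astl (19.3-fold), the small GTPase Rab38 (17.5-fold), the sodium channel subunit Fam155a (16.9-fold) and the potassium channel Kcnk13 (16.2-fold). The PRIMARY arrays of Astl were uneven, at 8.40, 10.65 and 9.69.

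The listed oocyte genes set the scale for these falls, while 23.1% of all genes were lower. All 20 tested oocyte growth genes fell, with a median of -4.54, among them Zp3, which read 13.26, 13.38 and 13.35 in PRIMARY and 8.30, 8.62 and 7.97 in ANTRAL. H1f8, Zp1, Khdc3 and Gdf9 fell by 5.31, 5.17, 5.03 and 3.73. The summed normalized signal of the 20 genes was 214000 to 215000 in PRIMARY and 8660 to 17200 in ANTRAL. Of 14 tested genes of early germ cells and meiotic prophase, 12 fell and none rose (median -1.69; 1 rose without ANTRAL a), with Dazl, an RNA-binding germ cell factor, at -4.67 and the cohesin Smc1b at least 6.84-fold lower. In these bulk samples, fewer cells of a type and less RNA per cell cannot be told apart, and the share of oocyte RNA in the sample moves with every fall listed here. Its part in them was not tested.

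Rises and falls were spread over the intermediate stages in different ways, a difference described here without a test. For each gene, the PREANTRAL mean was placed between the group means, at 0 for the PRIMARY level and 1 for the ANTRAL level. Of the 23 leading rises, 8 still had a PREANTRAL position under 0.1. These were Plin4, Plin5, Ssu2, Saa3, D630023F18Rik, Mrap, Plch2 and Slc12a8. Plin4 stood at 4.62, 4.64, 4.57, 4.76 and 11.66 in PRIMARY, TLS, MLS, PREANTRAL and ANTRAL, and was thus at background in the first 4 stages. Mrap stood at 7.55, 7.63, 7.57, 7.55 and 12.08. Slc12a8 was lower in PREANTRAL (5.93) than in PRIMARY (7.35) before its antral level of 11.78.

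Another 5 leading rises had a PREANTRAL position over 0.5, namely Inhba, Pfkp, Flt1, Mgarp and Msmo1. Inhba stood at 7.81, 11.11, 9.51, 13.68 and 14.19 over the same stages, and its TLS arrays were widely spread. Mgarp climbed at each step, through 8.99, 10.95, 11.32, 12.54 and 13.98.

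Among the 23 leading falls, 22 had a PREANTRAL position over 0.5, up to 0.87. The exception was Amh, anti-Müllerian hormone, a granulosa cell product that restrains follicle recruitment. It stood at 10.33, 11.16, 10.17, 9.39 and 5.61, so that 0.2 of its fall preceded the antral stage. Its arrays read 10.37, 10.46 and 10.18 in PRIMARY and 5.86, 5.97 and 5.003 in ANTRAL (-4.72 ± 0.51, SE, log2; adjusted p = 1.3e-07). The mean log2 level of the 20 oocyte growth genes stood at 12.87, 12.26, 11.74, 9.91 and 8.37 over the same stages. The part of oocyte RNA in the course of the leading falls was not tested.

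Over all genes called with a change of at least 2-fold, these included, the PREANTRAL level was nearer to PRIMARY than to ANTRAL for 615 of 1152 rises (53.4%) and for 274 of 1271 falls (21.6%), with median positions of 0.46 and 0.73. At MLS the shares were 67.6% and 74.2%, and at TLS 81.5% and 87.0%. With median scaling the order at these earlier stages turned, at 70.7% and 63.4% for MLS and 86.1% and 78.3% for TLS, while PREANTRAL kept its order at 65.0% and 15.2%. Without PREANTRAL repeat 2, whose labels conflict, the PREANTRAL shares were 52.4% and 22.5%. The genes share arrays and are not independent, and PMSG and mechanical isolation are named for ANTRAL alone among the stages, apart from the conflicting label of PREANTRAL repeat 2, so that their part cannot be told apart from that of the stage.

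**Figure D3:**
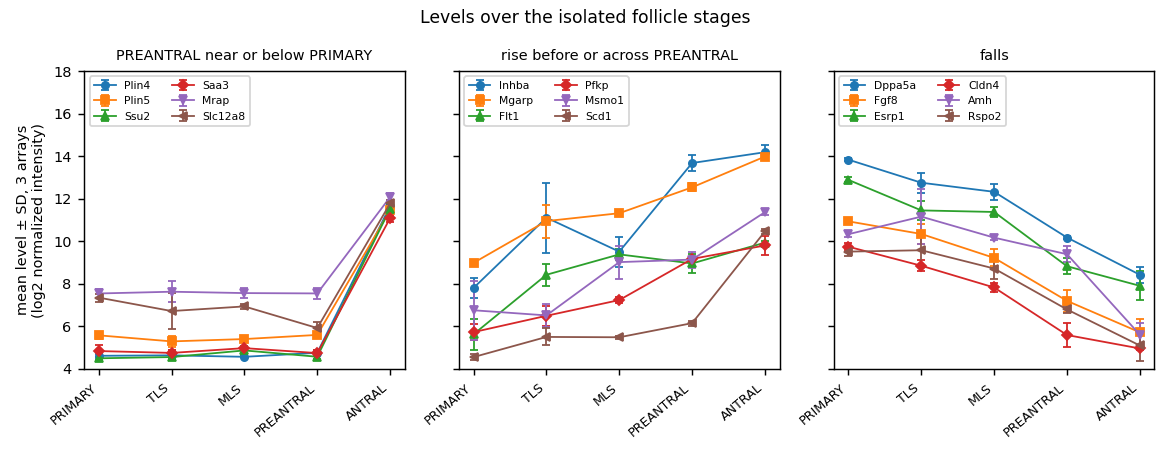
Mean level with SD over 3 arrays (log2 normalized intensity, y axis) of selected genes in the 5 stages of isolated follicles (x axis), in 3 panels. Plin4 stays near 4.6 to 4.8 until PREANTRAL and stands at 11.66 in ANTRAL, Inhba stands at 13.68 by PREANTRAL, and Dppa5a falls stepwise from 13.83 to 8.43.

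Cholesterol genes rose almost as a block. Of 16 tested genes of cholesterol synthesis and uptake, 15 were higher in ANTRAL and none lower, with a median of 2.03, against 23.3% of all genes. Msmo1, the sterol C4-methyl oxidase, read 8.08, 6.88 and 5.32 in PRIMARY and 11.26, 11.53 and 11.32 in ANTRAL (4.61, adjusted p = 5.1e-08). Its PRIMARY arrays were the most scattered of the leading genes, with repeat 3 the lowest. Scarb1, the receptor that takes up cholesterol esters from high-density lipoprotein, read 5.15, 5.80 and 5.51 against 9.78, 8.98 and 10.17 (4.16, adjusted p = 7.2e-11). Dhcr7, which completes the synthesis, read 6.32, 6.21 and 6.44 against 10.33, 9.71 and 10.36 (3.81, adjusted p = 2.2e-10). In both, ANTRAL a was the lowest antral array yet far above every PRIMARY array.

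Nsdhl, another enzyme of sterol demethylation, rose by 3.02. Hmgcs1, the HMG-CoA synthase at the start of the pathway, read 13.96, 13.87 and 13.72 in PRIMARY and 14.91, 14.91 and 15.005 in ANTRAL (1.09, adjusted p = 1.8e-05). It stood at 13.08 in PREANTRAL, below both groups. The member that did not pass was Insig1, the sterol sensor that holds back SREBP processing, at -0.07 (adjusted p = 0.93).

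Hmgcs1 is a classical target of the sterol-responsive factor SREBP, and its promoter was the single one among 13 listed cholesterol genes with a RefSeq promoter entry that held the motif TCACNCCAC within 250 bases before to 50 after the start, on either strand. The motif was present in 1.44% of 27025 promoters in the RefSeq table for GRCm38.p6, and in 1.44% of those of 8141 tested genes. It was also in Fbxw16 and Fbxw26 among 15 leading falls with an entry (13.3%, against 7.69% of the cholesterol genes). Saa3 among 18 leading rises and Fen1 of the replication list held it as well. Motifs of NR5A receptors and of the cAMP response were also sought and had no match in the 13 cholesterol promoters. The stretch around the Hmgcs1 motif is shown because this enzyme opens the pathway. It lies at chr13:119690184-119690252 on the plus strand, upstream of the gene, with the motif in capitals starting 137 bases before the start.
Hmgcs1: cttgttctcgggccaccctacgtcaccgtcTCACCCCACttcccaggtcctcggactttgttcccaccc
A match of letters is a description and not a bound site, and the 12 promoters without a match lack only these letters in this window.

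Fatty acid synthesis and elongation moved alike, with 15 of 19 tested genes higher and 1 lower (median 1.64). The shares over all genes were 23.3% and 23.1%. Beside Scd1, the activating enzyme Acsl4 rose from 6.29, 6.59 and 6.08 to 10.09, 9.63 and 9.96 (3.57, adjusted p = 4.3e-10). The desaturase Fads2 rose by 3.13, the acetyl-CoA synthetase Acss2 by 2.98 and the desaturase Scd2 by 1.64. Fasn, the synthase itself, read 5.22, 5.23 and 5.54 in PRIMARY and 4.76, 5.24 and 5.81 in ANTRAL, where 1 array detected it, and did not pass (-0.06, adjusted p = 0.91). The 1 gene that fell was Mlxipl, the carbohydrate-responsive regulator of lipid synthesis (-1.29, adjusted p = 0.0007).

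Of 18 tested genes of lipid droplets and lipases, 10 rose and 2 fell (median 0.71), against 23.3% and 23.1% of all genes. The monoglyceride lipase Mgll rose by 3.16, the triglyceride-forming enzyme Dgat1 by 1.47 and lipoprotein lipase, Lpl, by 0.86. Apoa1, the main protein of high-density lipoprotein, fell from 10.95, 11.08 and 10.83 to 7.83, 8.32 and 7.86 (-2.95, adjusted p = 0.00024), and Hilpda, an inhibitor of triglyceride breakdown, by 0.56. Without ANTRAL b or PRIMARY repeat 2 the call of Hilpda was lost, and the list had 1 fall. Apoe was at -0.49 (adjusted p = 0.10). Fatty acid oxidation had 9 rises and 2 falls among 19 (median 0.44), against the same shares, or 46.4% called in either direction. The dehydrogenase Acadm was at 1.44, Acadl at 1.18 and Acaa2 at 1.10. Ppargc1a, a coactivator of mitochondrial genes, was detected on all PRIMARY and no ANTRAL arrays (at least 1.56-fold lower, adjusted p = 0.00091), and Cpt1b, detected on 1 PRIMARY array, was at -0.51.

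Genes of sugar breakdown were mostly higher. Of 16 tested genes of glycolysis and lactate, 11 rose and 1 fell (median 0.99), against 23.3% and 23.1% of all genes. Pfkp, a phosphofructokinase, read 5.85, 6.02 and 5.33 in PRIMARY and 9.98, 9.30 and 10.14 in ANTRAL (4.07, adjusted p = 1.3e-11). Aldoc rose by 2.45, hexokinase Hk2 by 2.24, Pgam1 by 1.89, lactate dehydrogenase Ldha by 1.59 and Pkm by 0.93. The glucose carrier Slc2a1 was at 0.27 (adjusted p = 0.42). Bpgm, which diverts glycolysis to 2,3-bisphosphoglycerate, was detected on no ANTRAL array and was at least 4.38-fold lower.

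Pyruvate dehydrogenase and the TCA cycle had 10 rises and 2 falls among 27 genes (median 0.35). Calls were about as frequent as the 46.4% of all genes, of which 23.3% were higher and 23.1% lower. The cytosolic isocitrate dehydrogenase Idh1 read 10.46, 10.63 and 10.31 against 13.46, 13.34 and 13.47 (2.95, adjusted p = 4.1e-12), while its mitochondrial relative Idh2 was at -0.61 (adjusted p = 0.057). Idh1 was thus uniform and separate in the groups, and Idh2 did not pass. Pdhb, the cytosolic malate dehydrogenase Mdh1 and Ogdh rose by 1.38, 1.26 and 1.23. The mitochondrial malate dehydrogenase Mdh2 did not pass (0.09, adjusted p = 0.73). The 2 falls were Pdp1, the phosphatase that activates pyruvate dehydrogenase (-1.03), and Pdk1, the kinase that blocks it (-0.72), and citrate synthase, Cs, was at 0.22 (adjusted p = 0.35). Without ANTRAL repeat 1, ANTRAL b or PRIMARY repeat 3, Pdk1 lost its call and the list had 1 fall. Of 37 genes of oxidative phosphorylation, 8 rose and 1 fell, at a median of 0.11, a smaller share of calls than the 46.4% of all genes. Cyc1 was the largest rise (0.91), Ndufa9 the fall (-0.52), and Cox4i1 was level (13.78, 13.51 and 13.66 against 13.75, 13.68 and 13.52). Without PRIMARY repeat 3, 2 genes of this list fell. The medians of the glycolysis and respiratory lists differ, but that difference was not tested.

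Glutathione and peroxide enzymes split. Of 35 tested, 16 rose and 11 fell, with a median of 0.16, against 23.3% and 23.1% of all genes. Mgst2, a membrane glutathione transferase, read 5.38, 6.34 and 6.08 against 11.39, 10.51 and 11.24 (5.11, adjusted p = 8.1e-12), and the secreted peroxidase Gpx3 read 7.55, 7.70 and 8.003 against 11.15, 11.13 and 11.17 (3.40, adjusted p = 5.6e-12). Both groups of both genes were clearly apart. Gss and Gsto1 each rose by 1.53 and Mgst1 by 0.89. The cytosolic transferases Gstm6, Gstt2 and Gstm2 fell by 2.03, 1.56 and 1.42. Gstm1 fell by 1.21, but another of its probes went the other way, and these mu-class genes are similar in sequence. Gsta4 was at -0.15 (adjusted p = 0.59).

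Serine, glycine and one-carbon enzymes had 5 rises and 2 falls among 12 genes (median 0.34), against 23.3% and 23.1% of all genes. Aldh1l1, the cytosolic formyltetrahydrofolate dehydrogenase, rose by 1.75, the folate receptor Folr1 by 1.43 and the mitochondrial Shmt2 by 0.62, while the cytosolic Shmt1 fell by 0.97 and Mat2b by 1.87. Gldc was at least 1.45-fold higher, and Phgdh was at -0.11 (adjusted p = 0.63). The call of Shmt2 was lost without PRIMARY repeat 1. Amino acid transporters were divided as well, with 7 higher and 6 lower of 19 (median 0.29), against 23.3% and 23.1% of all genes. The glutamine carrier Slc38a5 rose by 2.89, the taurine carrier Slc6a6 by 2.60, Slc7a8 by 1.67 and Slc6a15 by 1.64. The cystine carrier Slc7a11 fell by 3.12, the glycine carrier Slc6a9, which oocytes use to regulate volume, by 2.39, Slc7a2 by 1.36 and Slc7a5 by 0.96. Slc38a3, an amino acid carrier known from cumulus cells, was at 0.46 (adjusted p = 0.17). The glutamate carrier Slc1a1, detected on no PRIMARY and 1 ANTRAL array, was at 0.58 (adjusted p = 0.11). Slc38a5 was higher in PREANTRAL (13.85) than in either group.

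Metal handling had 11 rises and 3 falls among 17 genes (median 0.70), against 23.3% and 23.1% of all genes. Transferrin, Trf, rose by 2.87, its receptor Tfrc by 1.08, and metallothionein Mt1 from 12.55, 12.44 and 12.56 to 14.29, 14.05 and 14.41 (1.74, adjusted p = 5.5e-08). Mt2 rose by 1.02. The iron exporter Slc40a1 fell from 12.75, 13.02 and 12.78 to 10.37, 10.68 and 9.95 (-2.52, adjusted p = 3.5e-10), Mt3 by 1.54 and the copper pump Atp7a by 0.54. The call of Atp7a was lost without ANTRAL repeat 1, ANTRAL b, PRIMARY repeat 1 or PRIMARY repeat 3, and that of Mt2 without PRIMARY repeat 2.

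Secreted ligands and their binding proteins rose more often than they fell. Of 24 tested genes of the IGF and activin systems, 14 rose and 3 fell (median 1.32), against 23.3% and 23.1% of all genes. Beside Inhba, Grem1, an antagonist of bone morphogenetic proteins, read 4.79, 4.73 and 4.72 in PRIMARY, below detection, and 9.36, 10.29 and 9.58 in ANTRAL (at least 24.1-fold higher, adjusted p = 5.0e-12). Follistatin, Fst, which binds activin, rose by 2.09 and Inhbb, the βB subunit, by 1.55. Inha, the subunit particular to inhibin, read 13.97, 13.66 and 13.75 against 14.21, 14.56 and 14.22 (0.54, adjusted p = 0.028). Its call was lost without ANTRAL a, PRIMARY repeat 2 or PRIMARY repeat 3.

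Igf1 read 8.04, 8.04 and 7.86 against 9.41, 9.39 and 9.48 (1.44, adjusted p = 2.5e-06), and stood highest in PREANTRAL, at 11.40. Its binding proteins moved both ways, with Igfbp4 up by 2.47, Igfbp3 at least 4.55-fold higher and Igfbp5 down by 0.86. The activin receptor Acvr2b fell by 1.16 and Tgfb2 by 0.53, the latter a call that no omission of an array but that of ANTRAL b left standing.

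Wnt genes went in opposite directions within 1 pathway, with 6 of 17 higher and 5 lower (median -0.11). The shares over all genes were 23.3% and 23.1%. Rspo2, a secreted enhancer of Wnt signals that in mice is made by the oocyte, read 9.32, 9.74 and 9.49 in PRIMARY and 4.60, 5.96 and 4.75 in ANTRAL, where 1 array detected it (-4.41, adjusted p = 1.0e-08). Wnt6 fell from 11.11, 10.85 and 11.23 to 7.89, 8.002 and 7.42 (-3.30, adjusted p = 3.3e-06), and Axin2, a feedback target of β-catenin, from 10.31, 10.32 and 10.56 to 7.39, 7.30 and 6.93 (-3.19, adjusted p = 1.3e-09). These 3 genes were separate in the groups on every array. Tcf7l2, a factor that binds β-catenin, fell by 1.58.

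Wnt4, which granulosa cells use in ovary determination, fell by 0.89 (adjusted p = 0.024), and stood lower still in PREANTRAL (7.46). Its call was lost without ANTRAL a or PRIMARY repeat 3. The rises included secreted ligands and decoys. Wnt5a rose by 2.99, and the secreted Frizzled-related proteins Sfrp4 and Sfrp2 and the ligand Wnt10b were at least 8.26-fold, 2.34-fold and 5.18-fold higher, none of these 3 being detected in PRIMARY.

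In Notch signalling, 4 of 12 genes rose and 2 fell (median 0.14), a share of calls near the 46.4% of all genes. Of all genes, 23.3% were higher and 23.1% lower. The ligand Jag1, made by oocytes in mice, was lost below detection in ANTRAL (at least 2.40-fold lower). The receptor Notch4, known from endothelium, rose by 2.40, and Notch3, known from vascular smooth muscle, was at least 2.72-fold higher. The targets Heyl and Nrarp each rose by 0.85 and Hey1 fell by 0.35. The call of Heyl was lost without ANTRAL a or PRIMARY repeat 3 and that of Hey1 without any single array other than PRIMARY repeat 1, which left 1 fall in the list. In hedgehog signalling, 6 genes were tested, of which the ligand Dhh fell (-1.23, adjusted p = 8.6e-05) and none rose (median -0.14). Ihh read 8.71, 8.56 and 9.001 against 8.26, 8.64 and 8.31 (-0.35, adjusted p = 0.45), and the receptor Ptch1 was at 0.03 (adjusted p = 0.93).

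Genes of cAMP signalling, the route of gonadotropin receptors, had 9 rises and 4 falls among 27 (median 0.30). The share of calls was near the 46.4% of all genes, of which 23.3% were higher and 23.1% lower. The cyclase Adcy4 rose by 2.06, the kinase subunits Prkaca and Prkar2b by 1.44 and 1.23, the transcription factor Crem by 1.41 and the phosphodiesterase Pde1a by 1.34. The anchoring protein Akap12 fell from 9.90, 10.33 and 10.30 to 7.43, 7.35 and 7.34 (-2.80, adjusted p = 1.9e-10), Rgs2 by 1.71, Adcy6 by 1.18 and Akap10 by 0.82. Pde3a, the phosphodiesterase of the oocyte, was at or near background (-0.11, adjusted p = 0.77), and Pde10a was at 0.18 (adjusted p = 0.48).

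Immediate early and stress genes had 7 rises and 2 falls among 21 (median 0.41), again close to the 46.4% called over all genes. Of all genes, 23.3% were higher and 23.1% lower. Gadd45a rose by 2.96, Gadd45b by 2.39, the phosphatase Dusp1 by 1.77, and Atf3 was at least 4.72-fold higher. Fos fell by 0.92 (adjusted p = 0.024), a call lost without ANTRAL b, PRIMARY repeat 1 or PRIMARY repeat 3. Ier2, the other gene that fell (-0.52), was near background, detected on 1 PRIMARY array and no ANTRAL array. It lost its call without any single array other than PRIMARY repeat 2. Without ANTRAL b, PRIMARY repeat 1 or PRIMARY repeat 3 no gene of the list fell, and without ANTRAL repeat 1 there was 1 fall. Egr1 was at -0.49 (adjusted p = 0.053) and Jun at -0.25 (adjusted p = 0.60). These genes can also respond to handling, mechanical isolation is named for ANTRAL and not for PRIMARY, and its part was not tested.

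Retinoid genes had 6 rises and 2 falls among 18 (median 0.13), which is also near the background of 46.4% (23.3% higher and 23.1% lower). The binding protein Crabp2 rose by 2.45, Rarres2 by 1.23 and the receptor Rarg at least 1.73-fold, while Rxra fell by 0.75 and Rara was at least 1.10-fold lower. The retinal dehydrogenase Aldh1a1 was at 0.32 (adjusted p = 0.39).

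Matrix genes were mixed in the basement membrane and mostly higher in the interstitium. In the basement membrane list, 7 of 17 rose and 4 fell (median 0.00), against 23.3% of all genes higher and 23.1% lower. The collagen IV chains Col4a1 and Col4a2 rose by 1.84 and 2.12, the heparan sulfate proteoglycan perlecan, Hspg2, from 9.13, 9.08 and 9.11 to 11.54, 11.50 and 11.78 (2.50, adjusted p = 8.3e-11), Col15a1 by 2.86 and Nid1 by 0.80. Col18a1 fell by 0.88, Lama2 by 0.67 and Agrn by 0.62, and Col4a3 was at least 1.79-fold lower. Lamb1, detected on all 3 PRIMARY arrays and on no ANTRAL array, was at -0.66 and did not pass (adjusted p = 0.16). Without ANTRAL b or PRIMARY repeat 1, 2 genes fell, since Lama2 and Agrn lost their calls, as both also did in the authors' values, and the call of Agrn held only without PRIMARY repeat 2. In the interstitial matrix list, 11 of 17 rose and none fell (median 1.26), with tenascin, Tnc, at 3.06, Mfap5 at 2.85, Col1a1 at 2.74 and Mgp at 1.97. Col1a2 and Col3a1, at 0.60 and 0.86, did not pass (adjusted p = 0.056 and 0.080), and Col1a2 was detected on 2 arrays of each group.

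Among hyaluronan and proteoglycan genes, 4 of 11 rose and 3 fell (median 0.43), against 46.4% of all genes called (23.3% higher and 23.1% lower). The syndecan Sdc1 rose by 2.25 and the glypican Gpc1 by 0.95, while the hyaluronan synthase Has3 fell by 2.24, Gpc3 by 0.62 and Sdc2 by 0.44. Has1 was detected on 2 of 3 ANTRAL arrays and no PRIMARY array, at 1.19 (adjusted p = 0.00022). Versican, Vcan, rose by 0.43, a call lost without ANTRAL a, PRIMARY repeat 2 or PRIMARY repeat 3. That of Sdc2 was lost without ANTRAL b, PRIMARY repeat 2 or PRIMARY repeat 3. Matrix proteases and inhibitors had 7 rises and 3 falls of 17 (median 0.51), beside the same 46.4%. Adamts1, a protease of ovulation, rose by 2.66, Serpina5 by 3.19 and the inhibitor Timp1 from 10.14, 10.18 and 10.17 to 12.29, 12.30 and 12.07 (2.06, adjusted p = 1.3e-08), and Adamts5 was at least 3.89-fold higher. Urokinase, Plau, fell by 1.03, Mmp23 by 0.91 and Adamts15 by 0.64. Adamts15 was detected on 2 PRIMARY arrays and no ANTRAL array. Its call was lost without ANTRAL repeat 1, ANTRAL b, PRIMARY repeat 1 or PRIMARY repeat 3.

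Junction genes had 8 falls and 5 rises among 17 (median -0.10), against 23.1% of all genes lower and 23.3% higher. Gja4, the connexin which joins oocyte and granulosa cells, read 11.08, 11.35 and 11.46 in PRIMARY and 7.58, 7.89 and 7.35 in ANTRAL (-3.69, adjusted p = 6.5e-12). Gja1, the connexin which joins granulosa cells to each other, read 14.31, 14.13 and 14.26 against 14.62, 14.71 and 14.59 (0.41, adjusted p = 0.020), and its call was lost without ANTRAL a or PRIMARY repeat 2. The connexins thus went in different directions.

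E-cadherin, Cdh1, fell by 3.02, Cdh3 by 1.47. The tight junction protein Cldn11 fell by 3.21 and stood lowest in PREANTRAL (6.72). Cldn10 was at least 2.53-fold higher, Nectin2 rose by 1.27 and F11r by 0.68. The call of F11r was lost without ANTRAL a, ANTRAL b or PRIMARY repeat 1, and without ANTRAL a 3 junction genes were higher. N-cadherin, Cdh2, was at 0.11 (adjusted p = 0.68), and 2 of its other probes went the other way. Axon guidance genes, many of which also pattern vessels, had 11 rises and 1 fall among 28 (median 0.46). The total share was near the 46.4% of all genes, of which 23.3% were higher and 23.1% lower. Nrp1 rose by 2.31, Sema7a by 1.34, Slit2 by 0.66 and Robo1 by 0.58, Plxnd1 was at least 1.93-fold higher, and Plxna2 fell by 1.83. The call of Robo1 held only without ANTRAL repeat 1, and that of Slit2 was lost without background correction and in the authors' values. Without ANTRAL a 3 genes of the list fell, and without ANTRAL repeat 1 or PRIMARY repeat 1 there were 2. Robo4, which is restricted to endothelium, rose by 3.08, although another of its probes went the other way.

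Water and ion transport had 10 rises and 2 falls among 20 genes (median 0.37), against 23.3% and 23.1% of all genes. Fxyd5, a modulator of the sodium pump, rose by 3.15, the carbonic anhydrase Car14 by 1.91 and the water channel Aqp1 by 1.63, and the potassium channel Kcnj8 was at least 2.76-fold higher. Fxyd6 fell by 1.10 and Aqp9 was at least 1.29-fold lower, the latter a call lost in the authors' values. Atp1b1, a subunit of the sodium pump, was at -0.34 (adjusted p = 0.17). Aqp8 rose by 0.78 (adjusted p = 0.046), after 8.69 in PREANTRAL, and lost its call without ANTRAL a, ANTRAL b, PRIMARY repeat 1 or PRIMARY repeat 3. Car14 likewise stood higher in PREANTRAL, at 12.32.

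Secretory and lysosomal genes were more often higher than lower, while 23.3% of all genes were higher and 23.1% lower. Of 24 genes of the secretory pathway and unfolded protein response, 14 were higher and 1 lower (median 0.52), with the chaperone Calr at 1.95, Herpud1 at 1.32, Edem1 at 1.04, Spcs3 at 0.78 and Xbp1 at 0.48. Creld2 fell by 0.53. Hspa5 was at 0.39 (adjusted p = 0.47), but its probe was near background, detected on 2 of 3 arrays in each group. Without ANTRAL b, 9 genes were higher and none lower, and Creld2 also lost its call without PRIMARY repeat 3. The call of Xbp1 held only without PRIMARY repeat 1 or 2. Of 23 lysosomal genes, 13 rose and none fell (median 0.53), led by Scarb2 at 1.92 and Gusb at 1.74. Ctsl and Ctsa each rose by 1.49, Lamp1 by 0.55 and Ctsd by 0.50, and Ctsb was at 0.39 (adjusted p = 0.075). Other probes of Ctsa went the other way. Without ANTRAL b or PRIMARY repeat 1, 8 lysosomal genes were higher and both Lamp1 and Ctsd lost their calls. The cytosolic ribosomal proteins were near the middle of the array, with 1 rise and 4 falls among 44 and a median of -0.08. Rpl13a rose by 0.71, Rps16, Rps25, Rpl37a and Rps9 fell by 0.47, 0.43, 0.39 and 0.34, and Rpl3 and Rps6 were at -0.01 and -0.16. The count of ribosomal falls ranged from 0 without PRIMARY repeat 3, and 1 to 2 without ANTRAL repeat 1, ANTRAL a or PRIMARY repeat 2, to 12 in the authors' values, and was 0 with median scaling.

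**Figure D4:**
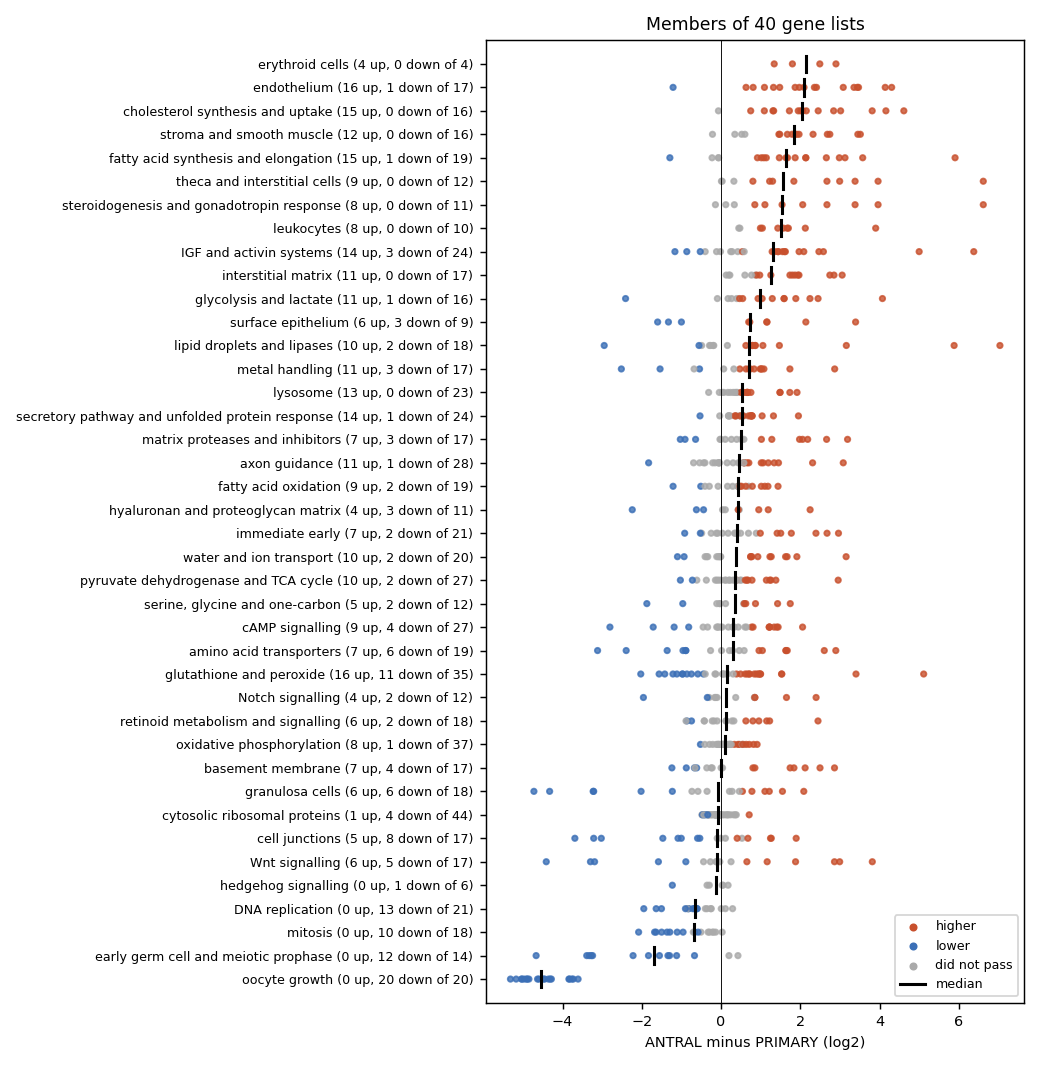
Difference between ANTRAL and PRIMARY (log2, x axis) of every tested member of the 40 gene lists, 1 list per line and 1 point per gene, coloured by its call, with a bar at the list's median. The lists run from erythroid cells (median 2.15) and endothelium (2.09) at the top to oocyte growth (-4.54) at the bottom, with ribosomal proteins close to 0.

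Cell division genes were lower in ANTRAL. Of 21 tested DNA replication genes, 13 fell and none rose (median -0.65), and of 18 mitosis genes, 10 fell and none rose (median -0.68). The background of falls was 23.1%. The origin-licensing factor Cdt1 read 11.91, 11.84 and 11.77 in PRIMARY and 9.93, 10.11 and 9.64 in ANTRAL (-1.95, adjusted p = 3.1e-06). Pole and Mcm10 fell by 1.64 and 1.50, Tk1 by 0.90, Mcm2 by 0.66 and Mcm5 by 0.65. The checkpoint kinase Bub1b fell by 2.08, Nusap1 by 1.68, Birc5 by 1.64 and Prc1 by 1.50. Top2a read 10.10, 10.21 and 9.70 against 9.91, 10.21 and 9.97, with overlapping groups (0.03, adjusted p = 0.93). The helicase subunits Mcm2 and Mcm5 and Top2a stood higher in PREANTRAL (10.63, 12.17 and 11.18) than in either group, while Bub1b went down at every step, through 10.03, 9.88, 9.69, 9.27 and 7.95 from PRIMARY to ANTRAL. The course over the stages thus differed between members.

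Of 35 listed replication and mitosis genes with a RefSeq promoter entry, 5 (14.3%) held the E2F motif TTTCGCGC on either strand, namely Cdk1, Lig1, Mcm5, Mcm6 and Mcm7. Lig1 fell by 0.61 and Mcm5 by 0.65. Cdk1, Mcm6 and Mcm7 did not pass (-0.22, -0.85 and 0.11, with adjusted p = 0.47, 0.066 and 0.67). The motif was found in 0.374% of all promoters and in 0.823% of those of tested genes. These lists are themselves made of genes known for their cell cycle control, so that the count describes the lists. The stretch of Mcm5 is shown because this helicase subunit is a reference gene of the list. It lies at chr8:75109326-75109393 on the plus strand of GRCm38.p6, upstream of the gene, with the motif in capitals starting 153 bases before the start.
Mcm5: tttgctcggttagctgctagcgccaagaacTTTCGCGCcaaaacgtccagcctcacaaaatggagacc

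Granulosa cells are the main somatic cells of a follicle, and their genes had no common direction. Of 18 tested, 6 rose and 6 fell (median -0.07), against 23.3% and 23.1% of all genes. Slc18a2, a vesicular monoamine transporter, read 9.05, 9.36 and 9.44 in PRIMARY and 4.88, 5.08 and 4.91 in ANTRAL, below detection (at least 15.7-fold lower, adjusted p = 2.8e-12). Like Amh, it was still high in PREANTRAL (8.79). Kctd14 fell by 3.23 and the transcription factor Wt1 from 12.56, 12.69 and 12.81 to 9.51, 9.91 and 9.003 (-3.21, adjusted p = 1.3e-10). The receptor Fshr rose from 9.10, 8.85 and 8.91 to 10.17, 10.60 and 9.73 (1.22, adjusted p = 0.00011), and the estrogen-forming enzyme Hsd17b1 by 1.11.

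The steroid list, given for reference, had 8 rises and no fall among 11 genes (median 1.54), against 23.3% and 23.1% of all genes. The side-chain cleavage enzyme Cyp11a1 rose by 6.62, the cholesterol carrier Star was at least 6.81-fold higher, and Hsd3b1 and the theca enzyme Cyp17a1 rose by 2.67 and 3.96. Cyp17a1 was uneven in PRIMARY, at 9.26, 6.99 and 8.94.

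Listed markers of endothelium, theca, stroma, leukocytes and erythroid cells were mostly higher in ANTRAL, and those of the surface epithelium went both ways. Of the endothelial list, 16 of 17 rose and 1 fell (median 2.09), against 23.3% and 23.1% of all genes. Flt1, a receptor of vascular endothelial growth factor, read 5.66, 4.89 and 6.35 in PRIMARY, where 2 arrays detected it, and 9.83, 9.97 and 10.01 in ANTRAL (4.304, adjusted p = 9.1e-11). Pecam1 rose by 2.35, Emcn by 3.47 and Esam by 3.44, Icam2 was at least 15.5-fold higher and Cdh5, the cadherin of endothelial junctions, at least 2.01-fold. Sox18, a factor of vessel development, fell by 1.21 (adjusted p = 0.0003). The summed normalized signal of the 17 genes was 2960 to 4090 in PRIMARY and 10600 to 11100 in ANTRAL, and 5 of the 17, Cdh5 among them, were undetected on every PRIMARY array.

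Theca and interstitial cell genes had 9 rises and no fall among 12 (median 1.57), against 23.3% and 23.1% of all genes. Their summed signals were 1150 to 1700 in PRIMARY and 11300 to 12400 in ANTRAL. The list shares Cyp11a1, Cyp17a1, Hsd3b1 and Star with the steroid list. Cyp17a1 and Cyp11a1 had the highest antral levels of its members (12.36 and 11.89) and weigh most in the antral sum. Aldh1a1, Osr1 and Ptch1 did not pass. Stroma and smooth muscle genes had 12 rises and no fall among 16 (median 1.83), with sums of 7370 to 11100 and 24900 to 26400. Actin Acta2 read 12.58, 11.99 and 11.34 in PRIMARY, with repeat 3 the lowest, and 13.61, 13.61 and 13.71 in ANTRAL (1.67, adjusted p = 1.7e-05). Actg2 rose by 3.51, the chemokine Cxcl12 by 3.45, Ogn by 2.68 and Tagln by 1.79, and decorin, Dcn, was at 0.52 (adjusted p = 0.064). All 16 stromal genes were detected on at least 1 PRIMARY array, but Tagln and Pdgfrb on only 1 of 3. Signal from stromal cells and from cells of the follicle itself cannot be told apart in the primary samples.

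Leukocyte genes had 8 rises and no fall among 10 (median 1.50), against 23.3% and 23.1% of all genes. Their sums were 384 to 447 in PRIMARY and 1930 to 2150 in ANTRAL, and 6 were undetected on every PRIMARY array. Lysozyme Lyz1 rose by 3.90 and Laptm5 by 2.13, and Cd74 and Coro1a were at least 2.09-fold and 2.49-fold higher. All 4 erythroid genes rose (median 2.15), at sums of 118 to 131 against 478 to 661, and 2 were undetected on every PRIMARY array. Hbb-b2 and Hbb-bt, near-identical globins, rose by 2.49 and 1.80, and Alas2 and Slc4a1 were at least 5.20-fold and 1.61-fold higher. Of 9 genes of the surface epithelium, 6 rose and 3 fell (median 0.73). Their summed signal was lower, at 1340 to 1570 in PRIMARY against 1020 to 1210 in ANTRAL. Krt8 and Lgals7 had the highest PRIMARY levels (9.75 and 8.21) and weigh most in the PRIMARY sum. The mean log2 level of the 9 genes, which weights them equally, was higher, at 5.93 in PRIMARY and 6.52 in ANTRAL. Upk3b rose by 3.39, Lgr5 was at least 3.45-fold higher, and Krt8, Lgals7 and Krt18 fell by 1.60, 1.33 and 1.00, the last of these calls being lost in the authors' values. Krt19 and Upk1b were detected on 2 ANTRAL arrays each.

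The granulosa sums of 52900 to 58800 and 57000 to 76100 overlapped. The mean log2 level over the same 18 genes, which weights them equally, was 10.06 to 10.26 in PRIMARY and 9.29 to 9.76 in ANTRAL, lower on every ANTRAL array. The sums of the theca, stroma, endothelium, leukocyte and erythroid lists were higher on every ANTRAL array than on any PRIMARY array. The matrix, Notch, axon guidance and lysosomal rises above have the same direction as these sums between the 2 groups. They were not compared over the other stages, where the stroma sum was already 26400 to 32500 in MLS. The part of these cell types in those rises was not tested. Nor was their part in that of Lgals3, S100a6 or Saa3, which leukocytes or stroma can also express.

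**Figure D5:**
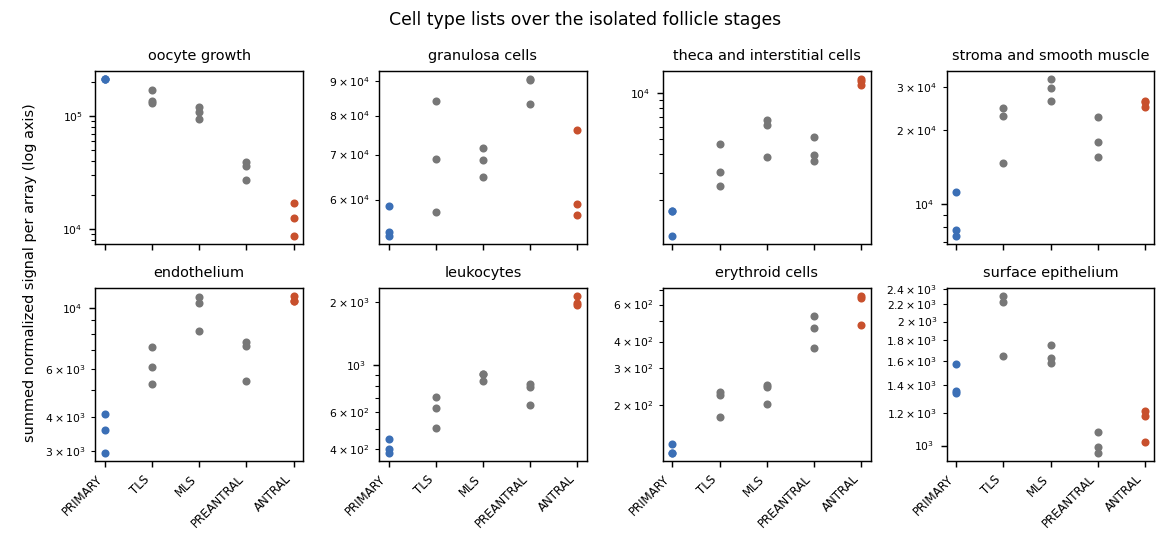
Summed normalized signal of the tested members of 8 cell type lists (y axes, log scale, each panel with its own range) in the 5 stages of isolated follicles (x axes), 1 point per array. The oocyte list drops from 214000 or more in PRIMARY to 17200 or less in ANTRAL, and the granulosa points of these groups overlap. The theca list, which shares Cyp11a1, Cyp17a1, Hsd3b1 and Star with the steroid list, goes from at most 1700 to at least 11300.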

How the data were processed

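RNA of 21 samples, 3 for each of 7 stages, was amplified in 1 round and hybridised to Illumina bead arrays, per the labels' protocols. The deposited table gives a signal intensity per probe, not background corrected or normalized, and a detection p-value, per the file headers. A second table holds the authors' log2 values of 23286 probes. The submitters' processing notes name limma without a version, and the steps behind these values are not given in the sources used here. The medians of its columns lay between 7.71 and 7.74.

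Intensities were corrected against the negative controls through the detection p-values and quantile normalized (neqc, offset 16, limma 3.58.1, R 4.3.3). Each of the detection columns of the antral arrays that share a name fell steadily with its own signal column and was used with it. Of 25697 probes, 21857 had 1 gene symbol in the platform table and 3840 none. Probes detected at p under 0.05 on at least 3 arrays were kept (15836, of which 13626 named), and a gene was read from its probe with the highest mean, which gave 10067 genes. limma (1 mean per stage over 21 arrays, eBayes, two-sided, Benjamini-Hochberg over all genes) tested ANTRAL minus PRIMARY, and every adjusted p in the text is from this fit. The number of arrays limits the precision. The fit was tested on simulated data with known changes.

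Genes were named by rule. These are the 15 largest rises and falls that passed, were detected on 2 of 3 arrays in each group, had groups apart and lay outside the oocyte, germ cell and steroid lists. To these come the 8 genes with the highest level among those detected in 1 group alone in each direction, and in each of 40 lists the reference genes with up to 4 largest called changes per direction. The members and lists were chosen with earlier results of these data known. Promoter sequences are those of RefSeq (GRCm38.p6). Alternatives covered scaling, background correction, offset, detection filter, probe choice, the authors' values, fewer arrays, and each array left out in turn. No batch beyond the stage is given in the labels.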

Additional observations from a re-analysis of the deposited data

How the results depend on the processing

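The count of called genes was 4675 and lay between 4144 (median scaling) and 5330 (without 1 day-3 and 1 TLS array) over 11 alternatives, and between 4090 and 4369 with 1 of the 6 arrays left out. The size of changes depended on the treatment of background. Genes called with at least 2-fold change were 1152 higher and 1271 lower, against 641 and 753 without background correction, and 401 and 498 in the authors' values. The share of falls whose PREANTRAL level was nearer to PRIMARY was 21.6%, and 13.9% in the authors' values. Log2 differences of the authors' values correlated at 0.911 with those used here across 10067 genes, which are not independent. Of 279 named genes that passed, 242 kept call and direction under all 17 alternatives, and 37 lost the call under at least 1, most of them with differences under 1 on the log2 scale. None reversed with a call. Same-numbered samples of different stages did not deviate together (r of 0.00572, 0.0811 and 0.0431). With the replicate number as a block, which the authors' values allow, 4673 genes were called against 4600 without it, with the same 401 and 498 of at least 2-fold. Genes near background have only bounds, since the probe signal cannot tell low from absent.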

Other observations

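Of the probes kept, 2210 had no gene symbol in the platform table. Tested in the same way, 987 of them (44.7%) passed an adjusted p of 0.05 in limma, 489 higher and 498 lower in ANTRAL, a share near that of the named genes (46.4%). They are unnamed here and were not followed further.

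Efhd1, a calcium-binding protein of mitochondria, was picked out after its values were seen, since like Cplx1 it was detected on 1 of 3 PRIMARY arrays. It read 4.99, 4.78 and 5.48 in PRIMARY and 10.84, 10.81 and 11.06 in ANTRAL, a difference of 5.82 ± 0.31 (SE, log2; limma, adjusted p = 2.2e-12). Unlike Cplx1, which stood at 5.36 in PREANTRAL, Efhd1 already stood at 7.29 there and at 7.09 in TLS.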
